A study of Mus musculus with 22 samples.

Results

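A set of 10 genes of intestinal iron and copper handling, out of 54838 genes counted, were followed in the small intestine of mice given zinc in the drinking water. The 10 genes were chosen by name and matched through their Ensembl identifiers: the metal carriers and reductase Slc11a2, Slc40a1, Cybrd1, Heph and Tfrc, the ferritin subunits Fth1 and Ftl1, and the copper proteins Slc31a1, Atp7a and Atp7b. All 10 were found in the counts and all 10 passed the filter on low counts in each fit described here. RNA sequencing was done on 22 libraries of female FVB/N-background mice aged 8 to 14 weeks, kept in a conventional animal house. GRDim mice carry a germline point mutation in the glucocorticoid receptor, giving a receptor that forms dimers less efficiently; GRWT mice are the wild types of the same GRDim/+ intercrosses. Mice drank either normal water or 25 mM ZnSO4 for 7 days, which gave 5 GRWT water, 5 GRWT zinc, 6 GRDim water and 6 GRDim zinc libraries. Zinc was given to the whole animal, and the labels name no measure of iron or copper status. Libraries were labelled ileum, from washed whole tissue, or IEC, from the scraped inner part of the distal ileum. The labels do not say that each library came from its own mouse, so the p-values measure the spread between libraries.

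Dietary iron is reduced at the brush border by the ferrireductase CYBRD1 and enters the enterocyte through SLC11A2 (DMT1), a carrier of divalent metals. Inside the cell it is stored in ferritin, built from FTH1 and FTL1 subunits, or leaves at the basolateral side through ferroportin (SLC40A1), with hephaestin (HEPH), a copper-dependent oxidase, oxidising it on the way out. Transferrin receptor (TFRC) takes up transferrin-bound iron and is strongest in dividing cells, in the gut those of the crypts. Copper enters through SLC31A1 (CTR1), and the copper pumps ATP7A and ATP7B move it out of the cytosol, ATP7A towards the blood in the enterocyte. When iron is low, iron regulatory proteins bind short hairpins, iron-responsive elements, in some of these mRNAs: a hairpin in the 5′ UTR holds back translation, while hairpins in the 3′ UTR of Tfrc keep its mRNA from being cut. Zinc in excess is known to interfere with copper and iron balance.

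The UTRs were searched for that hairpin in the GENCODE vM21 transcripts of GRCm38. RNA counts do not show the translation that a 5′ UTR hairpin acts on. The pattern was a C, then 5 bases of any kind, then the loop CAGTGN in the sense strand, with at least 4 of 5 pairs between the bases before and after the loop. Of the 10 genes, 5 held it in a UTR. The transcripts of Tfrc hold 4 such sites, all in the 3′ UTR, at chr16:32631218-32631247, chr16:32631597-32631626, chr16:32631662-32631691 and chr16:32631709-32631738 on the plus strand. Each is printed 5′ to 3′ with the 6-base loop in capitals.
Tfrc 3′ UTR site a: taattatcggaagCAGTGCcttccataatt
Tfrc 3′ UTR site b: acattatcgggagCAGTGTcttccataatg
Tfrc 3′ UTR site c: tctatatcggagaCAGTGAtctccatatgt
Tfrc 3′ UTR site d: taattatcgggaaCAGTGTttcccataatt

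Slc11a2 has a single site in its 3′ UTR (chr15:100395153-100395182, minus strand), with 4 of 5 stem pairs. The export gene Slc40a1 (chr1:45925465-45925494, minus strand) and the ferritin genes Fth1 (chr19:9982731-9982760, plus strand) and Ftl1 (chr7:45459779-45459808, minus strand) have theirs in the 5′ UTR. They are shown since they divide the iron genes into the 3′ and the 5′ kind.
Slc11a2 3′ UTR: gagccatcagagcCAGTGTgtttctatggt
Slc40a1 5′ UTR: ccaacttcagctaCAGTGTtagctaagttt
Fth1 5′ UTR: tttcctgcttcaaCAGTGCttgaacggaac
Ftl1 5′ UTR: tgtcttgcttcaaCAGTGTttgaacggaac

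Of 21877 protein-coding genes searched in the same way, 0.951% held the pattern in the 5′ UTR and 3.99% in the 3′ UTR. Tfrc was the 1 gene with 4 or more matches in the 3′ UTR. Heph matched in its coding sequence alone, and Cybrd1, Slc31a1, Atp7a and Atp7b had no match. A match is a description of the letters and not a measured binding site.

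By median, in muscle-rich and muscle-poor libraries alike, the ferritin subunits led the 10 genes and Cybrd1 and Atp7b closed the order. Levels are compared between genes as CPM (counts scaled to the library total) per kilobase of annotated exon. In the 12 muscle-rich libraries (defined in the next paragraph) Fth1 had a median of 314 CPM per kb (254.7 to 379.8) and Ftl1 109 (98.85 to 141.5). Slc31a1 (median 73.2, 52.78 to 127.2), Tfrc (49.5, 32.28 to 80.94) and Heph (40.6, 35.01 to 43.64) came next, with ranges that overlap from each to its neighbour. The Slc31a1 range also overlapped that of Ftl1. Slc40a1 followed at 23.7 (18.94 to 25.41), Slc11a2 at 9.26 (8.013 to 13.42) and Atp7a at 5.82 (4.61 to 7.185), and none of these 3 ranges touched the next. Cybrd1 (1.15, 0.9024 to 2.178) and Atp7b (0.606, 0.1901 to 1.164) overlapped at the bottom. The Cybrd1 and Atp7b counts are thus the thinnest of the 10, though every library was above the 0.192 to 0.228 CPM that 3 counts are worth.

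**Figure D1:**
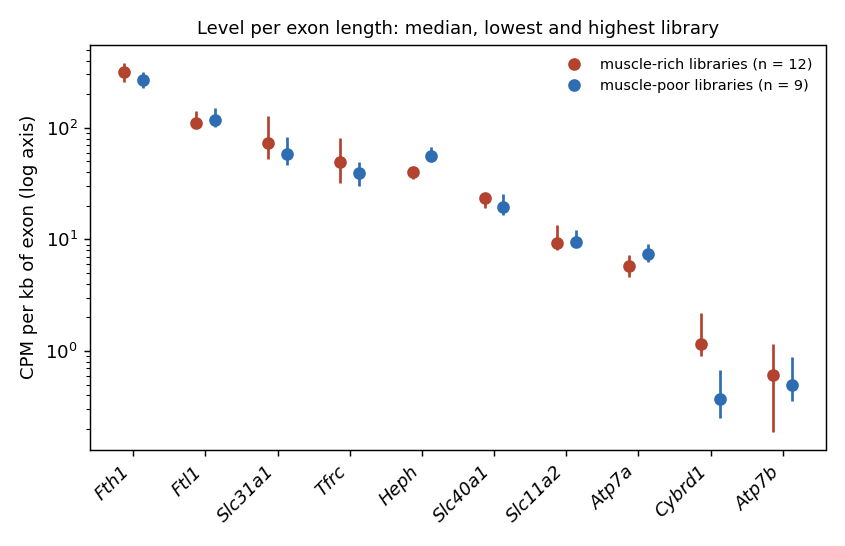
Level of each of the 10 genes in CPM per kilobase of exon (log axis), as the median (point) and the lowest to highest library (line), for muscle-rich libraries (n = 12) and muscle-poor libraries without GRWT zinc ileum replicate 3 (n = 9). Fth1 lies highest at a median of 314 in muscle-rich libraries, and Cybrd1 and Atp7b lie lowest at 1.15 and 0.606.

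The libraries differ in what tissue they hold, and the tissue label does not follow it. Total counts ran from 13149951 to 15620744. The smooth-muscle gene Myh11 was at 298 to 463 CPM in 12 libraries, called muscle-rich, and at 3.22 to 20.5 CPM in the other 10, called muscle-poor. Of the muscle-rich libraries 7 carry the IEC label and 5 the ileum label, and of the muscle-poor ones 3 and 7. Epcam, which marks epithelium, was at 1639 to 3177 CPM in all 22. The muscle-rich side has 3 libraries in each condition, and the muscle-poor side 2 GRWT water, 2 GRWT zinc, 3 GRDim water and 3 GRDim zinc. In GRDim, the muscle-rich water libraries are all IEC and the zinc libraries all ileum, and on the muscle-poor side it is the reverse, so within a side zinc and label cannot be told apart in GRDim. In GRWT each muscle-rich condition has 2 IEC and 1 ileum library. GRWT zinc ileum replicate 3 (muscle-poor) stands apart: the ileal bile-acid binding protein Fabp6 was at 11.7 CPM there and at 4387 to 10866 elsewhere, while the proximal genes Lct (4274 CPM against 0 to 7.56) and Gata4 (159 against 1.33 to 12.3) were high. The edgeR fits that hold it were also made without it, though not every value is given for both. In bulk tissue, fewer cells of a type and less RNA per cell cannot be told apart. The zinc-induced gene Mt1 rose by 5.53 ± 0.37 (log2 fold change ± SE) in GRWT and 4.37 ± 0.35 in GRDim muscle-rich libraries, and the zinc importer Slc39a4 fell (−2.62 ± 0.17 and −1.62 ± 0.17).

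Tfrc (ENSMUSG00000022797, chr16:32608920-32632794) was the 1 of the 10 genes called with zinc in both genotypes on the muscle-rich side, and in GRWT the rise was seen in libraries of either label. In muscle-rich GRWT libraries on water Tfrc was at 202.1, 201.3 and 199.7 CPM, and with zinc at 486.6, 314 and 463.8 CPM. The groups did not overlap, and the zinc libraries with the IEC label (486.6 and 314) and the ileum label (463.8) were all above every water library. The log2 fold change was 1.08 ± 0.13 (edgeR quasi-likelihood test, Benjamini-Hochberg adjusted p = 0.00284), and Tfrc was the only one of the 10 called in this comparison, where 0.383% of 15947 genes were called. With a term for the tissue label it was 1.08 (adjusted p = 0.00659), and without any single library it stayed between 0.9525 and 1.235. The mean ± SD went from 201 ± 1.23 to 421.5 ± 93.8 CPM (n = 3 each).

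In muscle-rich GRDim libraries Tfrc was already higher on water, at 284.6, 298.8 and 288 CPM, and reached 496.9, 500.6 and 435.6 CPM with zinc. Again the groups did not overlap. The log2 fold change with zinc was 0.75 ± 0.12 (adjusted p = 0.00545); 7.71% of the genes tested were called in this comparison. Here the label moves with zinc, and with a term for it, which rests on the GRWT libraries, the value was 0.67 ± 0.19 with an adjusted p of 0.122. Summed proliferation markers, of which 5 of 8 fell with zinc in this comparison, were at 886 to 957 CPM on water and 705 to 815 CPM with zinc. Summed T cell markers were at 372 to 441 CPM on water and 197 to 198 CPM with zinc (3 of 6 lower), and summed mature enterocyte markers at 9794 to 10131 and 10671 to 12573 CPM (4 of 8 higher). The macrophage sum was also lower without overlap (307 to 332 CPM on water and 223 to 295 CPM with zinc, 1 of 10 lower), and the sums of proximal small-intestine markers (94.6 to 109 and 139 to 199 CPM, 2 of 7 tested higher), epithelium (19456 to 20448 and 20552 to 21114 CPM, 0 of 10 called) and endothelium (66.9 to 71.5 and 72.2 to 77.6 CPM, 0 of 4 called) were higher. The part of these cells in the GRDim zinc changes of the 10 genes was not tested. In muscle-rich GRWT libraries none of the markers was called with zinc, and the proliferation sum overlapped between water (505 to 617 CPM) and zinc (529 to 589 CPM). There the smooth-muscle sum was lower with zinc without overlap (2682 to 2959 CPM on water and 1926 to 2546 CPM with zinc) and the proximal small-intestine sum higher (181 to 211 and 219 to 263 CPM), and their part in the Tfrc rise was not tested. The difference between genotypes in the zinc change of Tfrc was −0.33 ± 0.18 on the log2 scale (adjusted p = 0.395), and so did not pass the test.

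**Figure D2:**
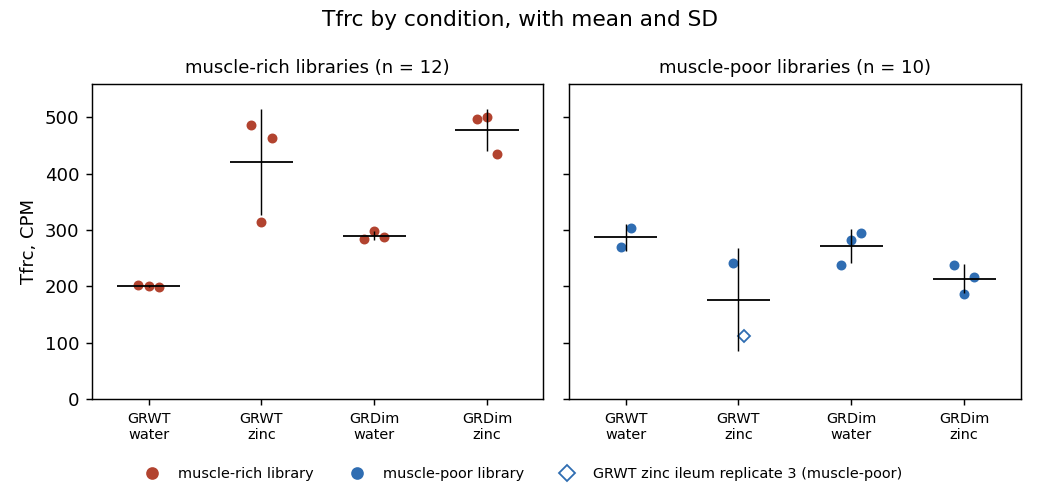
Tfrc in CPM in every library by condition, muscle-rich and muscle-poor libraries apart, with the mean and SD of each group. In muscle-rich libraries the zinc points (314 to 500.6) lie above all water points (199.7 to 298.8), and in muscle-poor libraries they do not.

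In muscle-poor libraries Tfrc showed no such rise. In GRWT it was at 270.8 and 304.6 CPM on water and at 240.8 and 111.7 CPM with zinc, the last value from the library that stands apart. In GRDim it was at 237.9, 282.2 and 295.1 CPM on water and at 238.2, 186.6 and 216.2 CPM with zinc. Every GRWT zinc library was below both water libraries, whereas in GRDim the ranges overlapped by a narrow margin. The log2 fold changes of −0.53 ± 0.21 in GRWT (adjusted p = 0.267) and −0.32 ± 0.17 in GRDim (0.719) did not pass the test; without the library that stands apart they were −0.29 ± 0.16 (0.624, with 1 zinc library assumed to vary like the other groups) and −0.32 ± 0.11 (0.111).

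The zinc change of Tfrc in muscle-rich minus that in muscle-poor libraries, a comparison added after the values were seen, was 1.61 ± 0.24 on the log2 scale in GRWT (edgeR adjusted p = 0.0204) and 1.09 ± 0.22 in GRDim (adjusted p = 0.957). In GRWT, 0.0183% of 16389 genes were called for this difference, and Tfrc was the only one of the 10. Without the library that stands apart the GRWT value was 1.39 ± 0.23 (adjusted p = 0.0658, with 0.0119% of genes called), and the call was also lost without GRWT water IEC replicate 4 (1.61, adjusted p = 0.0755), water IEC replicate 5 (1.61, 0.0749), water ileum replicate 1 (1.61, 0.0696), water ileum replicate 3 (1.53, 0.131) or zinc ileum replicate 1 (1.55, 0.0736). In GRDim no gene at all was called by edgeR (0%), 1 of the 10, Tfrc, had an unadjusted p under 0.05 (8.9e-05), and DESeq2 called Tfrc (adjusted p = 0.0054). On water Tfrc was lower in muscle-rich GRWT libraries (199.7 to 202.1 CPM) than in muscle-poor ones (270.8 and 304.6), without overlap.

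**Figure D3:**
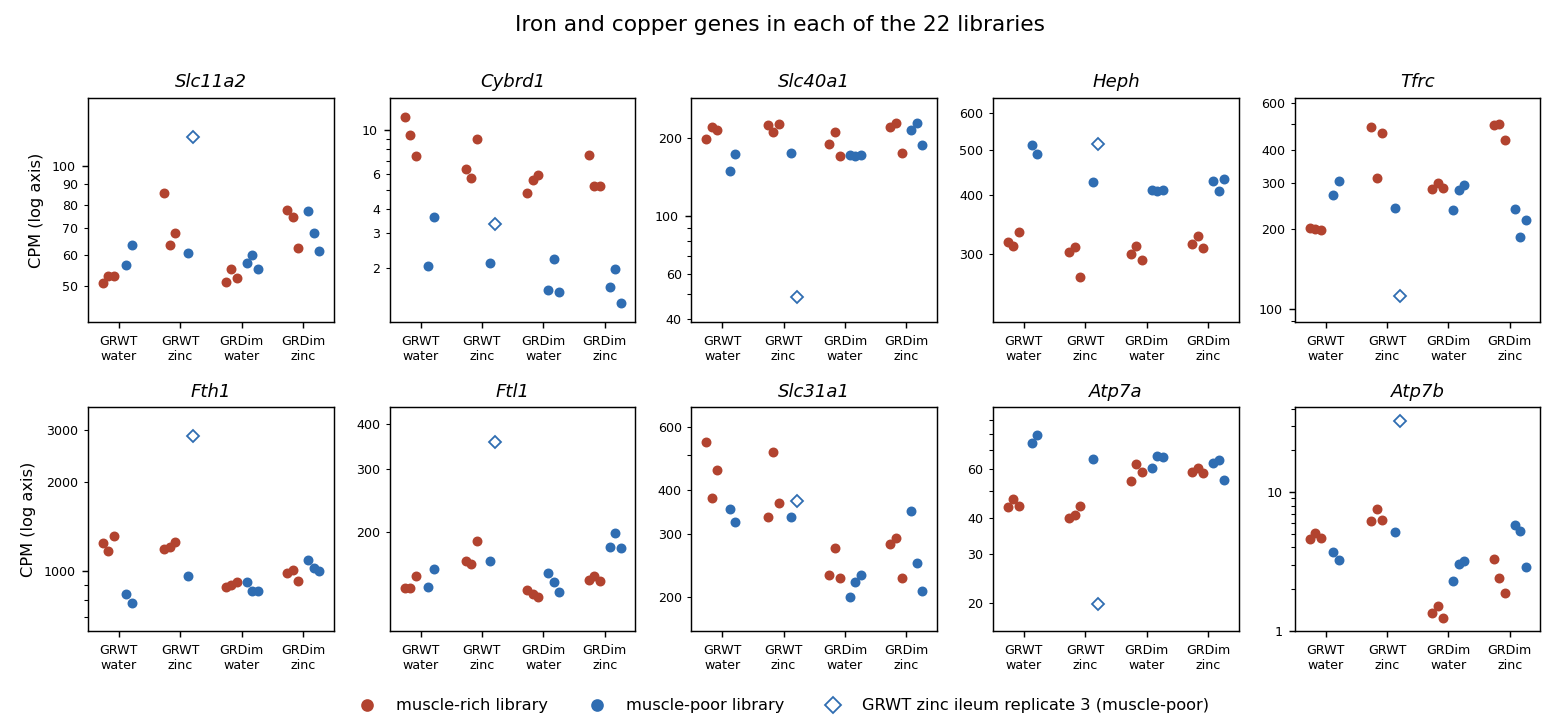
CPM of each of the 10 genes in all libraries (log axis), by condition and by muscle-rich or muscle-poor side, one point per library. Tfrc and Slc11a2 lie higher with zinc on the muscle-rich side, and GRWT zinc ileum replicate 3 lies apart from its group for Fth1 (2866 CPM) and Atp7b (32.66 CPM).

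Slc11a2 (ENSMUSG00000023030, chr15:100387898-100425072), the apical iron carrier, was higher with zinc in every muscle-rich comparison of single libraries, and passed the test in GRDim. In GRWT it was at 50.92, 53 and 53.02 CPM on water and at 85.27, 63.28 and 67.98 CPM with zinc. In GRDim it was at 51.15, 55.37 and 52.46 CPM on water and at 77.43, 74.65 and 62.32 CPM with zinc. Neither pair of groups overlapped, while the water libraries of the 2 genotypes did. The log2 fold changes were 0.48 ± 0.11 in GRWT (adjusted p = 0.109, while DESeq2 called it) and 0.46 ± 0.11 in GRDim (adjusted p = 0.028), and their difference was −0.02 ± 0.16 (0.972). The GRDim call ended with the tissue label as a term (0.54, adjusted p = 0.144), with no filter on low counts (0.45, 0.0519) and without GRDim water IEC replicate 4 (0.44, 0.0985), 5 (0.50, 0.0677) or 6 (0.45, 0.1) or GRDim zinc ileum replicate 1 (0.39, 0.111) or 2 (0.42, 0.116). Muscle-poor Slc11a2 was at 56.58 and 63.59 CPM in GRWT on water and at 60.63 CPM with zinc, against 117.8 CPM in the library that stands apart. In muscle-poor GRDim libraries it was at 57.09, 59.84 and 55.16 CPM on water and at 77.13, 68 and 61.21 CPM with zinc, groups that do not overlap, with a log2 fold change of 0.29 ± 0.09 (adjusted p = 0.093) without that library. Of the Slc11a2 exon bases 6.327% also belong to Gm5475 on the other strand, and the strand setting of the counting is not given in the sources used here.

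Cybrd1 (ENSMUSG00000027015, chr2:71117923-71142926), the ferrireductase that works beside SLC11A2, was not called with zinc. In muscle-rich GRWT libraries it was at 11.63, 9.467 and 7.444 CPM on water and at 6.338, 5.753 and 9.016 CPM with zinc. In GRDim it was at 4.818, 5.573 and 5.923 CPM on water and at 7.458, 5.2 and 5.217 CPM with zinc. Both pairs of groups overlapped, and no zinc change was called (GRWT −0.43, adjusted p = 0.416). Muscle-poor levels were lower, from 1.332 to 3.648 CPM over the 10 libraries.

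On the export side, Slc40a1 (ENSMUSG00000025993, chr1:45908068-45926523) and Heph (ENSMUSG00000031209, chrX:96455359-96574485) stayed within a narrow band on the muscle-rich side. Slc40a1 had means ± SD of 211.8 ± 11.02 and 221.5 ± 9.13 CPM in GRWT on water and zinc, and of 191 ± 20.5 and 208.7 ± 28.7 CPM in GRDim (n = 3 each). Heph had 321.5 ± 11.5 and 293.3 ± 22.0 CPM in GRWT, and 301.1 ± 10.3 and 317 ± 9.86 CPM in GRDim. Neither gene was called with zinc there, although every GRWT zinc library was below every water library for Heph.

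Muscle-poor Slc40a1 was at 173.2, 171.6 and 172.7 CPM in GRDim on water and at 216, 228.8 and 188.7 CPM with zinc. The groups did not overlap. The log2 fold change was 0.31 ± 0.08 (adjusted p = 0.0426) without the library that stands apart, in a fit where 5.15% of genes were called, and it was not called with that library. In GRWT the values were 149.3 and 173.9 CPM on water and 175.8 CPM with zinc, and 48.82 CPM in the library that stands apart. Heph there was at 410.5, 409.1 and 410.4 CPM in GRDim on water and at 428.9, 408.4 and 433 CPM with zinc, which overlap.

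Neither ferritin gene was called with zinc on the muscle-rich side. Ftl1 (ENSMUSG00000050708, chr7:45457944-45459884) was at 140.1, 140.1 and 151.1 CPM in muscle-rich GRWT libraries on water and at 166.7, 163.3 and 189.5 CPM with zinc. In GRDim it was at 138.2, 134.6 and 132.5 CPM on water and at 147.4, 151.5 and 145.9 CPM with zinc. Zinc was above water in every library of both genotypes, but neither log2 fold change, 0.28 ± 0.06 in GRWT (adjusted p = 0.0523) and 0.16 in GRDim (0.102), passed the test by edgeR, while DESeq2 called it in GRWT. In muscle-poor GRDim libraries Ftl1 went from 154.1, 145.7 and 136.5 CPM on water to 181.9, 199.4 and 180.2 CPM with zinc, 0.39 ± 0.07 on the log2 scale (adjusted p = 0.0124) without the library that stands apart. With that library in the fit, Ftl1 was not called there. Ftl1 shares 34.63% of its exon bases with other annotated genes and has near-identical copies, so part of its reads may be lost or moved. The copies that were counted reached 2.054 CPM at most, and summing them with Ftl1 ended no call.

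Fth1 (ENSMUSG00000024661, chr19:9980598-9985098) was at 1244, 1172 and 1318 CPM in muscle-rich GRWT libraries on water and at 1193, 1207 and 1254 CPM with zinc, which overlap. In GRDim it was at 883.4, 900.5 and 923.2 CPM on water and at 986.9, 1008 and 925 CPM with zinc, apart by a narrow margin. Neither was called (GRWT −0.02, adjusted p = 0.939; GRDim 0.14, 0.23). Muscle-poor Fth1 was at 838.6 and 782.5 CPM in GRWT on water and at 967.4 CPM with zinc, and at 2866 CPM in the library that stands apart. In muscle-poor GRDim libraries it was at 919.6, 854.9 and 858.8 CPM on water and at 1089, 1024 and 999.1 CPM with zinc, 0.27 ± 0.08 on the log2 scale without that library (adjusted p = 0.0598).

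Of the copper genes, Atp7b (ENSMUSG00000006567, chr8:21992785-22060305) was the 1 called with zinc. In muscle-rich GRDim libraries Atp7b was at 1.346, 1.52 and 1.237 CPM on water and at 3.29, 2.395 and 1.858 CPM with zinc. The groups did not overlap, and the log2 fold change was 0.91 ± 0.23 (edgeR adjusted p = 0.0275). In GRWT it was at 4.599, 5.069 and 4.705 CPM on water and at 6.146, 7.573 and 6.325 CPM with zinc, also without overlap, at 0.49 ± 0.19 (adjusted p = 0.327). The genotypes' changes did not differ by the test (0.41 ± 0.30, adjusted p = 0.529). The GRDim call was lost with the tissue label as a term (1.01, adjusted p = 0.122) and without GRDim water IEC replicate 4 (0.90, 0.085), 5 (0.99, 0.0634) or 6 (0.83, 0.11) or GRDim zinc ileum replicate 1 (0.66, 0.144) or 2 (0.93, 0.0777). Muscle-poor Atp7b values were 3.726 and 3.219 CPM in GRWT on water and 5.152 CPM with zinc, against 32.66 CPM in the library that stands apart. In muscle-poor GRDim libraries they were 2.299, 3.025 and 3.176 CPM on water and 5.759, 5.281 and 2.886 CPM with zinc, and overlapped.

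Slc31a1 (ENSMUSG00000066150, chr4:62360727-62391769) was at 544.2, 378.4 and 452.8 CPM in muscle-rich GRWT libraries on water and at 334.8, 509.9 and 365.9 CPM with zinc. In GRDim it was at 230.5, 273.7 and 226.1 CPM on water and at 282.2, 292.1 and 225.9 CPM with zinc. The zinc and water ranges overlapped in both genotypes. Atp7a (ENSMUSG00000033792, chrX:106027276-106124926) had means ± SD of 45.14 ± 1.59 and 41.97 ± 2.18 CPM in GRWT on water and zinc, and of 58.63 ± 4.07 and 58.96 ± 1.24 CPM in GRDim (n = 3 each). No zinc change of either copper gene was called on either side.

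Counted over the 10 genes, zinc in muscle-rich libraries gave 1 higher call in GRWT (Tfrc) and 3 in GRDim (Tfrc, Slc11a2 and Atp7b), with no lower call in either; of all genes 0.232% were called higher and 0.150% lower in GRWT, and 4.46% and 3.25% in GRDim. The groups did not overlap for 5 of the 10 in GRWT (4 higher, and Heph lower) and for 5 in GRDim (all higher), where 15.6% and 33.9% of genes over 1 CPM did not overlap. Muscle-poor water and zinc groups did not overlap for 5 of the 10 in GRWT (36.4% of genes) and for 4 in GRDim (26.6%). On the muscle-poor side edgeR called none of the 10 with zinc in GRWT (6 had an unadjusted p under 0.05, and DESeq2 called Fth1 and Atp7b) or in GRDim (0 and 0), against 0.0431% and 0.0575% of all genes. Both of these comparisons come from 1 fit whose estimate of the spread holds the library that stands apart, and a missing call there carries little information. Without it, none of the 10 was called in GRWT (0.202% of genes) and Slc40a1 and Ftl1 were called higher in GRDim. In these muscle-poor GRDim libraries summed T cell markers were at 252 to 427 CPM on water and 143 to 209 CPM with zinc (0 of 6 called), and summed mature enterocyte markers at 17715 to 18668 and 20059 to 20396 CPM (1 of 8 higher). The macrophage (31.8 to 41.6 and 23.6 to 26.3 CPM), plasma and B cell (26.8 to 39.4 and 8.58 to 19.7 CPM) and proliferation sums (906 to 938 and 776 to 889 CPM) were also lower with zinc without overlap, each with 1 marker called lower. The part of these cells in the calls was not tested. With all 22 libraries in 1 fit and the muscle split as a term, none was called with zinc in GRWT (0.293% of genes, 5 of the 10 with an unadjusted p under 0.05, DESeq2 calling Atp7b) or in GRDim (1.65%, 1 and 0). Without the library that stands apart, that fit called Slc11a2 (0.37 ± 0.09, adjusted p = 0.0102), Slc40a1 (0.24 ± 0.08, 0.0479), Ftl1 (0.27 ± 0.06, 0.00414) and Atp7b (0.79 ± 0.25, 0.0441) higher with zinc in GRDim, where 10.2% of genes were called. Tfrc was not among these. Its estimated change in GRDim was positive on the muscle-rich side and negative on the muscle-poor side, where it did not pass the test.

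**Figure D4:**
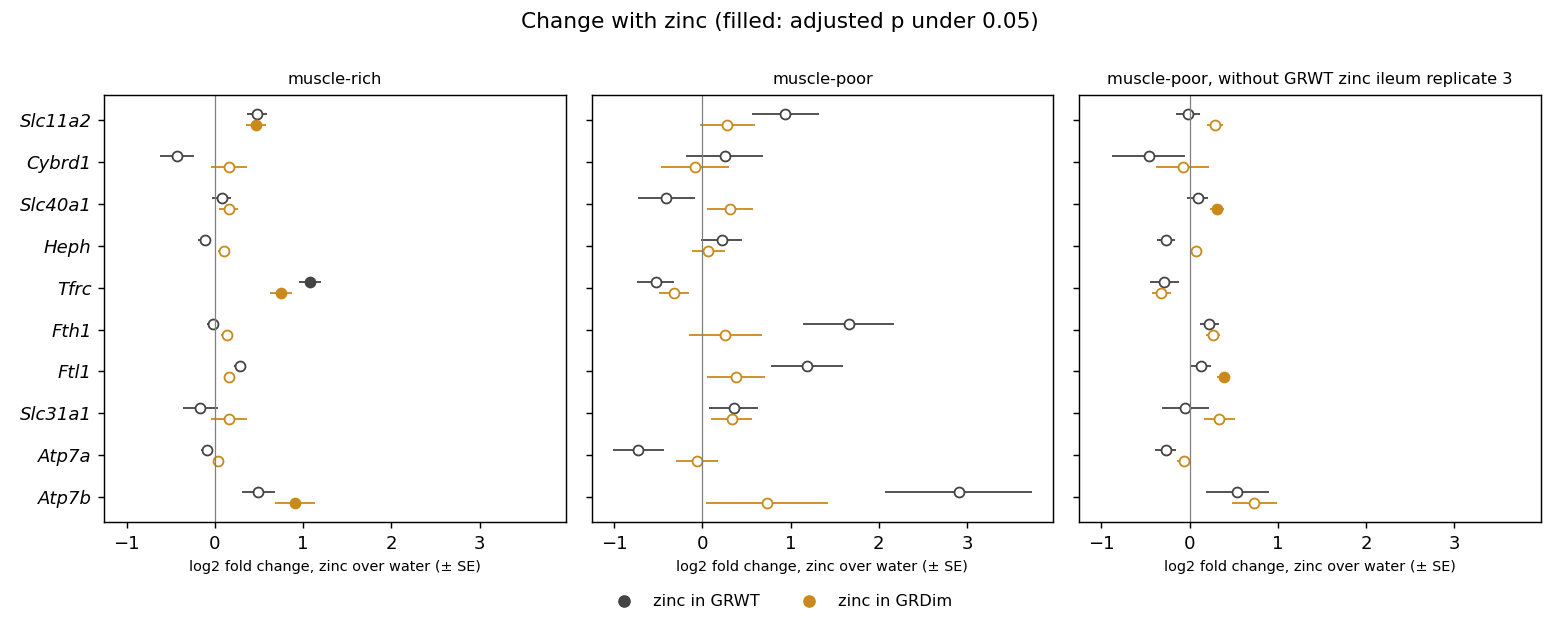
Log2 fold change with zinc ± SE for the 10 genes in GRWT and GRDim, in muscle-rich libraries, muscle-poor libraries, and muscle-poor libraries without GRWT zinc ileum replicate 3; filled points passed an adjusted p of 0.05. Tfrc lies to the right in muscle-rich libraries (1.08 and 0.75) and to the left in muscle-poor ones (−0.53 and −0.32).

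On water, GRDim libraries differed from GRWT libraries in 6 of the 10 genes on the muscle-rich side, where 38.7% of all genes were called (19.7% higher and 18.9% lower). Of these 2 were higher in GRDim and 4 lower. Tfrc (0.53 ± 0.13, adjusted p = 0.00578) and Atp7a (0.38 ± 0.06, adjusted p = 0.000251) were higher. Atp7b was lower in GRDim, with a log2 fold change of −1.81 ± 0.22 (adjusted p = 1.79e-05), at 1.237 to 1.52 CPM against 4.599 to 5.069 CPM in GRWT. Slc31a1 was lower by 0.91 ± 0.20 (log2 fold change −0.91, adjusted p = 0.00647), Cybrd1 by 0.81 ± 0.20 (−0.81, adjusted p = 0.00485) and Fth1 by 0.47 ± 0.07 (−0.47, adjusted p = 6.75e-05). No GRDim water library reached the lowest GRWT water library in any of these 4, and in all 8 of the 10 genes had groups that did not overlap, as had 55.7% of genes over 1 CPM. Slc11a2 (0.02), Slc40a1 (−0.15), Heph (−0.10) and Ftl1 (−0.09) did not pass the test. In this comparison all 3 GRDim libraries carry the IEC label and 1 of the 3 GRWT libraries the ileum label.

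Markers of other cells differed between the same libraries. Summed T cell markers were at 372 to 441 CPM in muscle-rich GRDim water libraries and at 56.3 to 92.2 CPM in GRWT ones, and all 6 were called higher. Summed proliferation markers were at 886 to 957 against 505 to 617 CPM (8 of 8 higher), macrophage markers at 307 to 332 against 191 to 252 CPM (5 of 10 higher) and mature enterocyte markers at 9794 to 10131 against 12733 to 13562 CPM (4 of 8 lower). The sums of plasma and B cell markers (3986 to 5059 against 1460 to 1902 CPM, 2 of 5 higher) and epithelium (19456 to 20448 against 18164 to 18655 CPM, 4 of 10 higher and 2 lower) were also higher without overlap. Those of ileum (6217 to 7679 against 10063 to 11755 CPM, 4 of 7 lower), proximal small intestine (94.6 to 109 against 181 to 211 CPM, 3 of 7 tested lower and 1 higher), crypt stem cells (744 to 785 against 896 to 1079 CPM, 2 of 4 lower) and smooth muscle (2089 to 2326 against 2682 to 2959 CPM, 6 of 10 lower) were lower. Their part in the differences of the 10 genes was not tested.

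On the muscle-poor side none of the 10 was called between genotypes on water (0.0288% of genes, 1 of the 10 with an unadjusted p under 0.05, 0 by DESeq2), although the groups did not overlap for 5 of the 10 (48.6% of genes). Without the library that stands apart, which belongs to neither group but enters the common spread, Heph (−0.39 ± 0.07, adjusted p = 0.0147) and Atp7a (−0.35 ± 0.09, adjusted p = 0.0449) were lower in GRDim, where 3.16% of genes were called. Summed mature enterocyte markers were at 17715 to 18668 CPM in these GRDim libraries and at 24177 and 24185 CPM in the GRWT ones (6 of 8 lower in that fit). The ileum sum was also lower without overlap (11018 to 12069 against 13206 and 13470 CPM, 1 of 7 lower). The proliferation (906 to 938 against 788 and 814 CPM, 0 of 8 called), macrophage (31.8 to 41.6 against 26.5 and 28.4 CPM, 1 of 9 tested higher), plasma and B cell (26.8 to 39.4 against 12.9 and 12.9 CPM, 1 of 5 higher), epithelium (24451 to 26175 against 23460 and 24266 CPM, 0 of 10 called) and endothelium sums (2.80 to 3.86 against 2.21 and 2.79 CPM, 0 of 2 tested called) were higher. The part of these cells was not tested. Heph was at 410.5, 409.1 and 410.4 CPM in GRDim against 511 and 490.5 CPM in GRWT. Atp7a was at 60.65, 66.62 and 66.07 CPM against 74.3 and 79.61 CPM, below both, whereas on the muscle-rich side it was above, a difference between the sides that was not tested. Slc31a1 was at 200.3, 220.1 and 230.7 CPM against 354 and 324.5 CPM, −0.74 ± 0.19 on the log2 scale (adjusted p = 0.0913). This muscle-poor Slc31a1 value is from the fit without the library that stands apart, and Slc31a1 was not called with that library either. Over all 22 libraries Slc31a1 (−0.86 ± 0.15, adjusted p = 0.00137) and Cybrd1 (−0.81 ± 0.22, adjusted p = 0.017) were lower in GRDim, where 16.2% of genes were called. Cybrd1 was not called there without GRWT water IEC replicate 4 (−0.71, adjusted p = 0.0584), with the tissue label in place of the muscle split (−0.98, 0.303) or with no covariate (−0.94, 0.324). Without the library that stands apart 5 of the 10 were lower (31.1% of genes called), with Heph (−0.22, adjusted p = 0.00941), Fth1 (−0.27, 0.0188) and Atp7b (−1.15 ± 0.26, 0.0019) beside these.

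**Figure D5:**
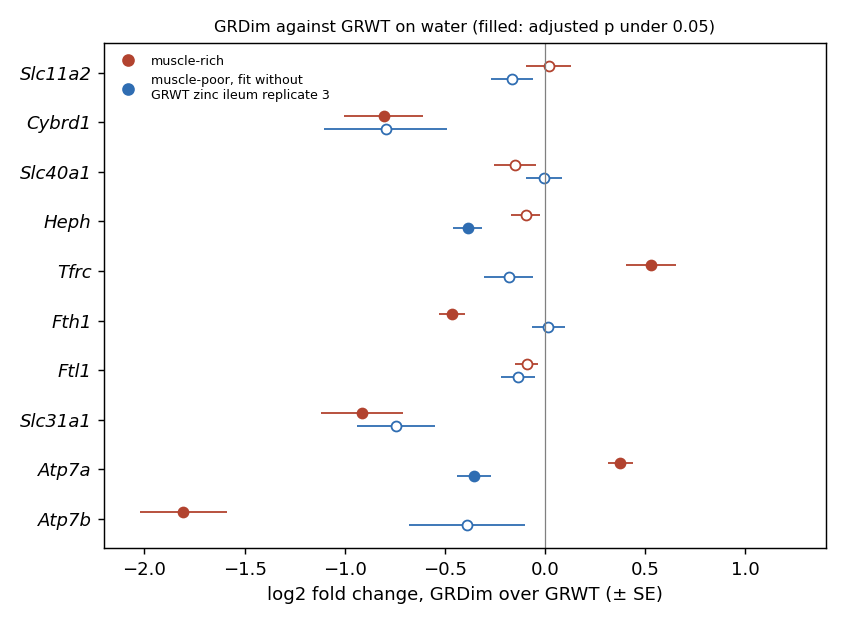
Log2 fold change of GRDim against GRWT on water ± SE for the 10 genes, in muscle-rich libraries and in muscle-poor libraries. The muscle-poor values are from the fit without GRWT zinc ileum replicate 3. Filled points passed an adjusted p of 0.05. Atp7b (−1.81), Slc31a1 (−0.91), Cybrd1 (−0.81) and Fth1 (−0.47) lie to the left in muscle-rich libraries, and Tfrc (0.53) and Atp7a (0.38) to the right.

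A difference between genotypes in the zinc change passed the test for none of the 10 genes, which does not show that the changes were alike. On the muscle-rich side edgeR called 0 of them (0.263% of genes), 1 had an unadjusted p under 0.05 (Heph, 0.22 ± 0.10, adjusted p = 0.319) and DESeq2 called 0. On the muscle-poor side (0% of genes) and over all libraries (0%) edgeR and DESeq2 called 0 and none had an unadjusted p under 0.05. Without the library that stands apart edgeR again called 0 of the 10 in both (0% and 0.0119% of genes), with 1 and 2 of them at an unadjusted p under 0.05. Without GRWT zinc ileum replicate 2, which leaves that library as the 1 muscle-poor GRWT zinc library, 7 of the 10 were called on the muscle-poor side.

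A further 80 genes of iron and copper metabolism were counted, of which 74 were tested on the muscle-rich side. None was called with zinc in GRWT, where 0.383% of all genes were. In GRDim 7 rose with zinc and 2 fell, against 4.46% and 3.25% of all genes. Within either side the tissue label moves with zinc in GRDim, and these further genes were not examined with a term for it. Those that rose include the mitochondrial iron importer Slc25a37 (0.51, adjusted p = 0.0011), Epas1, the hypoxia-inducible factor HIF-2α that drives iron uptake genes in the enterocyte (0.39, 0.00695), the copper amine oxidase Aoc1 (0.53, 0.022), Fbxl5, the ubiquitin ligase that degrades an iron regulatory protein (0.27, 0.0292), and the porphyrin exporter Abcg2 (0.35, 0.038). Lactoferrin Ltf (−2.05, 0.00636) and the metalloreductase Steap2 (−0.46, 0.00644) fell. The median of the list was 0.0168 against −0.0131 for all genes tested. On water 11 of the 74 were higher and 14 lower in GRDim, against 19.7% and 18.9% of all genes, so that the list's share did not exceed that of all genes. Its median was −0.0312 against −0.0028. Slc25a37 (−1.08, adjusted p = 6.54e-08), Fbxl5 (−0.46, 0.000118), Epas1 (−0.49, 0.000147), Aoc1 (−0.69, 0.000827) and the zinc and iron carrier Slc39a14 (−0.52, 0.000207) were lower. Ltf (3.47, 3.67e-05), Steap2 (0.70, 2.99e-05), the prolyl hydroxylase Egln3 (1.06, 2.76e-05) and Hif1a (0.69, 3.92e-05) were higher. These 2 comparisons share the GRDim water libraries. On the muscle-poor side none of the 61 tested was called with zinc or between genotypes. Without the library that stands apart 62 were tested, and 4 rose and 1 fell with zinc in GRDim (5.15% of all genes called in either direction): Aoc1 (0.54, adjusted p = 0.0082), Epas1 (0.35, 0.0185), the copper-zinc superoxide dismutase Sod1 (0.30, 0.0235) and Aco1, which encodes iron regulatory protein 1 (0.34, 0.0264), were higher and Hif1a (−0.45, 0.0116) lower.

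Of the 10 genes 6 differed between muscle-rich and muscle-poor libraries, as did 62.4% of all genes. Cybrd1 was higher in muscle-rich libraries by 1.37 ± 0.16 on the log2 scale (adjusted p = 2.34e-07). Heph (−0.80 ± 0.09, adjusted p = 5.29e-08), Atp7b (−1.14 ± 0.32, 0.00413), Ftl1 (−0.55 ± 0.14, 0.0016), Atp7a (−0.46 ± 0.11, 0.00112) and Slc11a2 (−0.41 ± 0.13, 0.00976) were lower. The same 6 were called without the library that stands apart (66.9% of genes called), with Atp7b at −0.56. These values pool the 4 conditions, which did not all point the same way in CPM. Atp7b in GRWT was higher in muscle-rich libraries, at 4.599 to 5.069 against 3.219 and 3.726 CPM on water and a mean of 6.681 against 5.152 CPM in the 1 other muscle-poor zinc library, while in GRDim on water it was at 1.237 to 1.52 against 2.299 to 3.176 CPM. Slc11a2 with zinc (GRWT mean 72.18 against 60.63 CPM, GRDim 71.46 against 68.78) and Ftl1 with zinc in GRWT (173.2 against 166.6) were also not lower in CPM on the muscle-rich side when that library is left out. Scaling by library totals in place of TMM moved the median of all genes in this comparison by 0.245, and Slc11a2 (−0.13, adjusted p = 0.21) and Atp7a (−0.23, 0.143) were then no longer called while Tfrc was called higher (0.49, 0.0342), as it also was with a term for the tissue label beside the muscle split (0.39, 0.0461).

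Over the 12 muscle-rich libraries, among 11389 genes over 5 CPM, the genes whose log2(CPM + 1) followed Tfrc most closely were Hdac1 (Pearson r = 0.981), Tmco4 (0.974) and Rnf114 (0.947). Those that followed Slc11a2 were Arf3 (0.924), Rab29 (0.921) and Mt4 (0.913). The points share the zinc treatment and the genotype, so these values are a description of likeness alone.

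Core letters of the metal-response element, TGCACNC or TGCGCNC on either strand, through which the zinc sensor MTF-1 acts on genes such as Mt1, were counted in RefSeq promoter windows of GRCm38.p6, from 250 bases before to 50 after the start. Of the 10 genes 7 had a window, 9 windows in all. A match was found in 3 of them: Tfrc (2 overlapping matches), Atp7a (2) and Atp7b (1). Among 32851 windows of annotated genes, 25.7% held at least 1 match and 7.11% held 2 or more.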

How the data were processed

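Total RNA of 22 libraries was sequenced single-end from a stranded TruSeq preparation. Per the submitters' processing notes and the study's methods, the authors trimmed reads with Trimmomatic, mapped them to mm10 with HISAT2 2.0.4 and deposited raw counts per gene from featureCounts, without multimapping reads; the annotation and the strand setting are not given in the sources used here. The 54838 Ensembl identifiers were matched to GENCODE vM21 (54809 found). Samples were grouped by the labels; 2 GRDim water ileum columns share 1 name and so carry no replicate number. Libraries over 100 CPM of Myh11 were analysed apart from the rest, a split that the summed smooth-muscle markers left as it was.

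Counts were tested with edgeR 4.0.16 in R 4.3.3 (TMM scaling, filterByExpr, robust quasi-likelihood test with limma 3.58.1), 4 conditions in 1 fit per set of libraries, with Benjamini-Hochberg adjustment over all genes and a call at an adjusted p under 0.05. The tests were checked on simulated counts. DESeq2 1.42.0, which the study used, other scalings and filters, a tissue label term, a replicate block and leaving out each library were the alternatives. CPM values are counts over the library total. Total counts per library were 13149951 to 15620744, so that 3 counts are 0.192 to 0.228 CPM, a floor that covers counting error only. Replicate libraries differed by more than counting noise (chi-square per degree of freedom 4.47 to 273 over genes).

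The 10 genes, the lists and the comparisons were chosen with earlier results of these data known. The text names the 10 genes in each comparison, and of the 80 further pathway genes at most the 5 with the lowest adjusted p in each direction. Promoter windows come from RefSeq (GRCm38.p6).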

Additional observations from a re-analysis of the deposited data

Results flagged for a closer look

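Of 40 groups of 5 or 6 libraries (10 genes in 4 conditions, both sides together), 5 held a library farther from the nearest other than Dixon's 95% limit allows, while chance flags about 1 in 20 groups. Of these, 3 lie in GRWT zinc ileum replicate 3, the muscle-poor library with high Lct and low Fabp6: Fth1 at 2866 CPM (nearest library 1254), Ftl1 at 355.6 CPM (nearest 189.5) and Atp7b at 32.66 CPM (nearest 7.573). Slc31a1 was at 509.9 CPM in GRWT zinc IEC replicate 5, with the nearest library at 371. Tfrc was at 237.9 CPM in GRDim water ileum replicate 1, with the nearest library at 282.2. The zinc change of Tfrc in muscle-rich minus muscle-poor GRWT libraries was 1.61 on the log2 scale (edgeR adjusted p = 0.0204). This comparison was added after the values were seen. Tfrc was higher with zinc in 3 of 3 muscle-rich libraries and lower in 2 of 2 muscle-poor ones, among them GRWT zinc ileum replicate 3. Without that library the value was 1.39. The call was lost in 6 of 22 fits that each left out 1 library, and with library totals in place of TMM.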

How the results depend on the processing

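Counts of the 10 genes called kept within 1.5 times of the reported count in 111 of 129 alternatives other than leaving out a library. Several of the reported counts are 0, and a count that stays at 0 enters as kept, so this share says little for those results. For zinc in muscle-rich GRWT libraries (1 called), DESeq2 called 3, and no filter, a filter of 1 CPM in every library and the tissue label term called 2 each; leaving out each library gave 1 to 3. For zinc in muscle-rich GRDim libraries (3 called), the tissue label term and the replicate block called 0, and leaving out each library gave 1 to 4. On the muscle-poor side, DESeq2 called 2 for zinc in GRWT, and fitting only the conditions compared called 2 for zinc in GRDim and 3 between genotypes; leaving out each library gave 0 to 8 for zinc in GRWT, 0 to 2 for zinc in GRDim and between genotypes, and 0 to 7 for the interaction, where 8 and 7 came without GRWT zinc ileum replicate 2, which leaves the library that stands apart as the 1 GRWT zinc library, and 2 came without either GRWT zinc library. Over all libraries, DESeq2 called 1 for zinc in GRWT (leaving out each library, 0 to 3), only the conditions compared called 5 for zinc in GRDim (0 to 4), and between genotypes (2 called; 1 to 5) only the conditions compared called 5, and the replicate block, the tissue label in place of the split and no covariate called 1 each. For the zinc change in muscle-rich minus muscle-poor libraries, library totals called 0 and DESeq2 3 in GRWT (0 to 9), and DESeq2 1 in GRDim. Its value for Tfrc was 1.775 with library totals (adjusted p = 0.134; 1.387 to 1.944 leaving out each library) in GRWT and 1.093 with DESeq2 (adjusted p = 0.0054; 0.9785 to 1.193) in GRDim. The interaction of Tfrc turned from 0.21 to −0.03218 on the muscle-poor side without GRWT zinc ileum replicate 3 (−0.03218 to 0.5141 leaving out each library), and over all libraries from −0.10 to 0.009285, 0.008682, 0.009991 and 0.03273 without GRWT water IEC replicate 4, IEC replicate 5, water ileum replicate 1 and zinc IEC replicate 4 (−0.3152 to 0.03273); none of these passed the test. The cause was not tested.

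The deviations of same-numbered muscle-rich libraries correlated at −0.17 to 0.205 (median −0.032, 9 pairs, 3 over 0.1), and 2 of 9 libraries correlated best with their own number. These few values, taken within groups of 3 libraries, show no steady pairing by number but cannot exclude it. With the replicate block, Tfrc with zinc was at 1.06 in muscle-rich GRWT (adjusted p = 0.0418) and 0.72 in GRDim (0.299), and the block also ended the calls of Slc11a2 (0.65, adjusted p = 0.243) and Atp7b (1.34, 0.123) with zinc in muscle-rich GRDim. Between genotypes on water it ended those of Slc31a1 in muscle-rich libraries (−0.91, 0.097) and of Cybrd1 over all libraries (−0.76, 0.0866), and between muscle-rich and muscle-poor libraries that of Slc11a2 (−0.33, 0.0837). The block over all muscle-poor conditions and the muscle-poor tissue label could not be fitted, as they follow the conditions. The muscle-poor side has 2 to 3 libraries a group, which limits what it can call.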
